A study of Mus musculus with 7 samples.

Results

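The 6 genes described here, Tet1, Tet2, Tet3, Dnmt3a, Dnmt3b and Dnmt3l, encode proteins that set or remove DNA methylation in mammals, or help to do so. They were examined in chromatin immunoprecipitation sequencing (ChIP-seq) for Zfp281, a zinc finger transcription factor, and for Suz12, a subunit of Polycomb repressive complex 2, in mouse embryonic stem cells (ESCs) and mouse extraembryonic endoderm stem cells (XENs). A peak was taken as a member when it overlapped by at least 1 bp one of 6 windows, each a gene with its flanks in the mm9 genome build. The windows ran on chromosome 10 from 62240 to 62370 kb for Tet1, on chromosome 3 from 133100 to 133235 kb for Tet2 and on chromosome 6 from 83285 to 83435 kb for Tet3. Those of the methyltransferase genes ran on chromosome 12 from 3780 to 3940 kb for Dnmt3a, on chromosome 2 from 153450 to 153540 kb for Dnmt3b and on chromosome 10 from 77480 to 77550 kb for Dnmt3l. Together the windows spanned 735 kb and held 72 peaks, namely 52 of the 52296 ESC Zfp281 peaks, 8 of the 8184 ESC Suz12 peaks, 9 of the 3449 XEN Zfp281 peaks, 3 of the 4 XEN Suz12 peaks and 0 of the 1 XEN H3K27me3 peak. The genes and windows were chosen by the measured peaks of these same lists, so their peak counts, positions and enrichments are descriptions and carry no test.

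All cells were of strain 129S1 and were grown without feeder cells, ESCs in serum medium with leukemia inhibitory factor and XENs in serum medium conditioned by mouse embryonic fibroblasts. No group carried a deletion, a transgene or a drug treatment in the labels, which also name no clone. The study asked how Zfp281 restrains the conversion of ESCs into XENs. Its 7 groups had 1 library each: in both cell types Zfp281, Suz12 and an input without antibody, and in XENs also H3K27me3, the histone mark that the Suz12 complex deposits. The inputs themselves were not analysed here. With 1 library per group no spread between replicates exists, so a difference between cell types below is a difference between libraries. Peak lists hold no expression values, and the labelled cell types could not be checked against marker genes. Depth entered through the tags behind each peak, which are given with the peaks.

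Dnmt3a and Dnmt3b are the de novo DNA methyltransferases, which methylate cytosines that were unmethylated before. Dnmt3l resembles them but has no catalytic activity of its own and stimulates both. Tet1, Tet2 and Tet3 are dioxygenases that oxidise methylated cytosine, a step towards its removal. In mouse ESCs Tet1, Tet2 and the Dnmt3 genes are known to be expressed and Tet3 is known to be low, and Zfp281 is known as a partner of Tet1 and a repressor of Tet2 in these cells. Dnmt3a is known to have a promoter for a long isoform and an internal promoter for a short isoform that prevails in ESCs.

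Zfp281 is known to bind G-rich DNA, so the RefSeq promoters of the 6 genes were searched for the 9 letters CCCCTCCCC on both strands, in the 250 bases before each start. The promoter table is of build GRCm38.p6 and the peaks are of mm9, so the promoters were not placed on the peaks and their positions cannot be set side by side. All 6 genes matched by symbol, with 10 starts. The 10 stretches were 55.6% to 83.6% G and C, against a median of 52.4% over all promoters in the table. Of the Dnmt3a stretches 2 overlap each other. The letters occurred before 2 of these 10 starts, against 5.75% of the 32851 promoters in the table, which were not matched in G and C. Shown first are these 2, with the matches in capitals: the third listed start of Dnmt3a (chr12:3891494-3891743, plus strand), which holds 2 matches that do not overlap, and the third listed start of Dnmt3l (chr10:78055085-78055334, plus strand), which holds 1. Dnmt3b (chr2:153649199-153649448, plus strand) is shown because its window held a high ESC Zfp281 peak while these 9 letters are not in this stretch, and Tet2 (chr3:133544391-133544640, minus strand) because its stretch is the richest of the 10 in CpG. The Dnmt3b stretch ends in all but the last of the 9 letters, so a match running past its end would not have been counted.
Dnmt3a: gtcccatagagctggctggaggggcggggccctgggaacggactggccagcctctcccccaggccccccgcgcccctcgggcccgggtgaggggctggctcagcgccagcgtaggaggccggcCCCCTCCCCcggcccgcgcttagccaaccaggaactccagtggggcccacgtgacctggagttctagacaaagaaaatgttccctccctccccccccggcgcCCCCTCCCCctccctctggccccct
Dnmt3l: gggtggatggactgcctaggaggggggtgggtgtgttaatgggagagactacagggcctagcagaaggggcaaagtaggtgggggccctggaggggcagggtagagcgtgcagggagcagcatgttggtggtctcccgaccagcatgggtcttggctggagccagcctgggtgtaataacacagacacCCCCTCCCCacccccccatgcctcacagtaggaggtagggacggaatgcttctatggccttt
Dnmt3b: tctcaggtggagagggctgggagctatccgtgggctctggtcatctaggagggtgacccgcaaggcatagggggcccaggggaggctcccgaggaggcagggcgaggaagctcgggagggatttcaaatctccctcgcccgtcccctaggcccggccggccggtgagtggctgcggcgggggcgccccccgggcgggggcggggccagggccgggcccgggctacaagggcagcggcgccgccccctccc
Tet2: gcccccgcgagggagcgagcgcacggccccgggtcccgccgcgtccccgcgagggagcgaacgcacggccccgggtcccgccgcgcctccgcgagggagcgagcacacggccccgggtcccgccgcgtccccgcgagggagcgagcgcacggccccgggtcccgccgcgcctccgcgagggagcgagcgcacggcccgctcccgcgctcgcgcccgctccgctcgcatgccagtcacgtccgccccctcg
The Tet2 stretch held 51 CpG dinucleotides and was 83.6% G and C, against medians of 6 CpG and 52.4% over all promoters in the table. Only 0.0670% of these promoters held as many CpG. The stretch of Dnmt3a printed above held 15 CpG, that of Dnmt3b 21 and that of Dnmt3l 3.

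Zfp281 peaks were found around all 6 genes in ESCs, and around 4 of them in XENs. The ESC Zfp281 list had 17 peaks in the Dnmt3a window, 9 each in those of Dnmt3l, Tet1 and Tet2, 5 in that of Dnmt3b and 3 in that of Tet3. Per length, Dnmt3l was the densest of the 6 with 12.9 peaks per 100 kb, followed by Dnmt3a with 10.6, and Tet3 the sparsest with 2.00. The whole list averaged 2.03 peaks per 100 kb, and 59.0% of all 120-kb tiles of the genome held at least 1 ESC Zfp281 peak. In XENs 11.1% of the tiles held a Zfp281 peak and 0.00934% a Suz12 peak, and at least 3 XEN Zfp281 peaks, as at Tet1 and Tet2, occurred in 1.10%. At least 9 ESC Zfp281 peaks, as in 4 of the windows, occurred in 7.35% of the tiles. The windows were 70 to 160 kb long, and the tiles were not matched to them in length or gene content.

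By strength, the ESC Zfp281 peaks of the windows were close to the list as a whole. The fold enrichment over the expected level, as the authors' peak caller gave it, exceeded the list's median of 5.48 in 32 of the 52 peaks, or 61.5%, against 49.1% of the list. By the deposited -log10 q-value, 5 of the 52 (9.62%) were in the highest 10% of the list, a share no higher than that 10% itself, and none was in the highest 1%. Of the 5, 4 belonged to Dnmt3 genes and the other to Tet3. Wide peaks were more frequent than in the list, since 6 of the 52 (11.5%) spanned at least 2 kb against 3.39% of the list. Of these 6, 5 lay in Dnmt3 windows. The Dnmt3 windows held 31 of the 52 peaks in all, so such small counts cannot set the gene families apart.

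**Figure D1:**
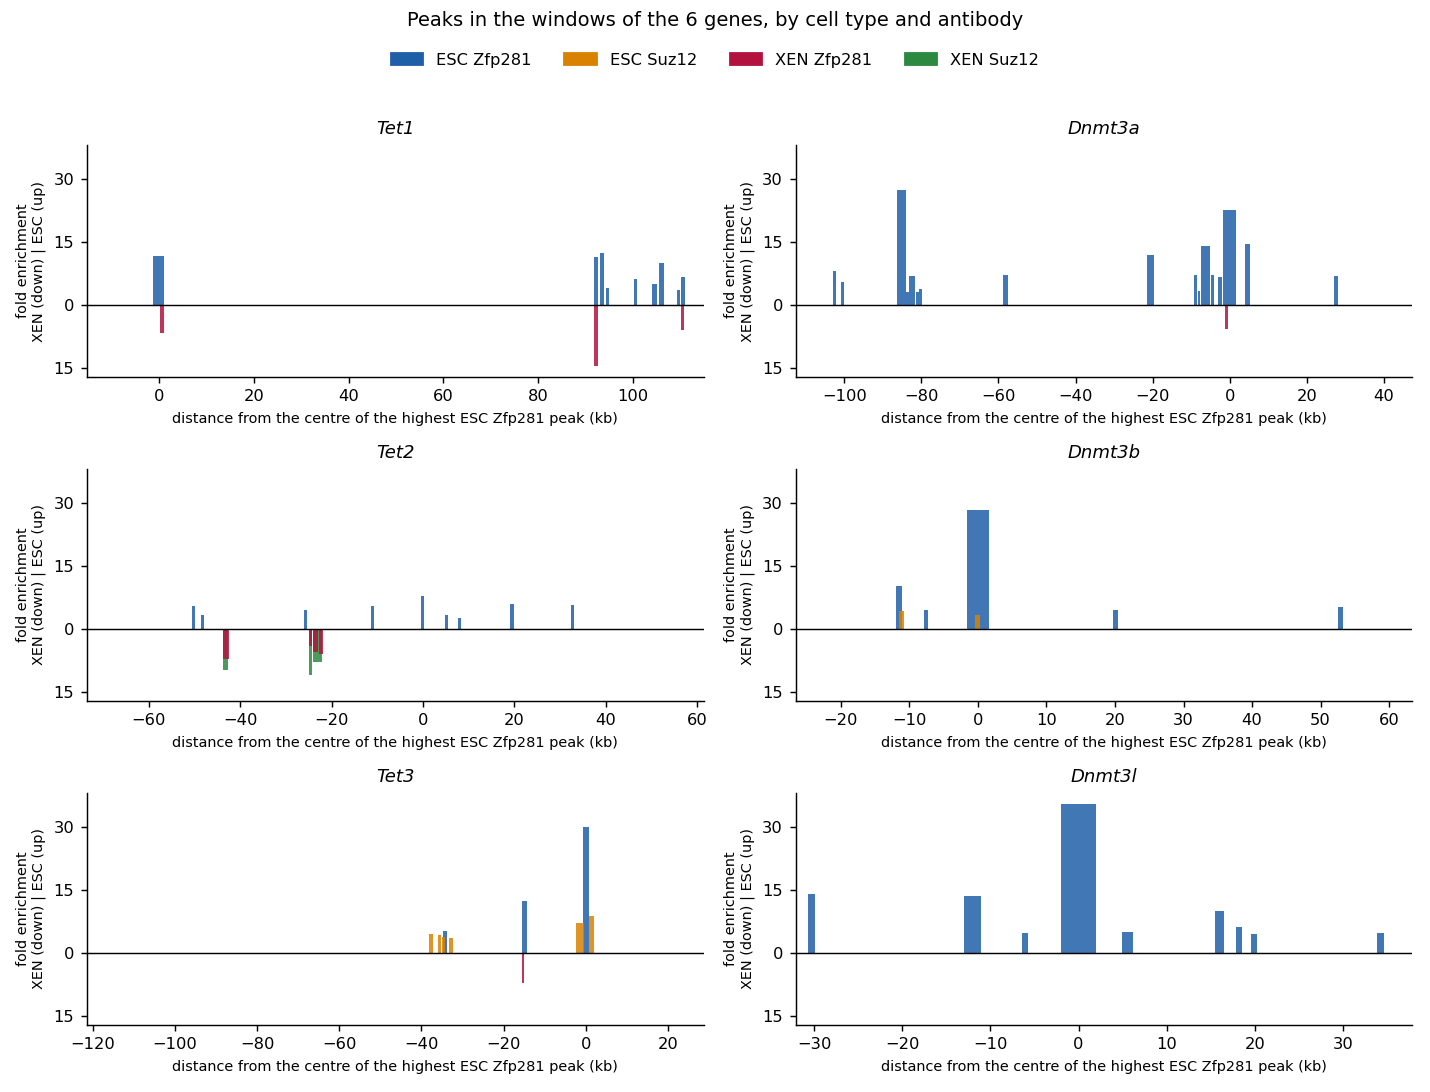
Peaks in the windows of the 6 genes. Each bar is a peak placed by its distance in kb from the centre of the window's ESC Zfp281 peak with the highest -log10 q-value, its height is the authors' fold enrichment (ESC lists upward, XEN lists downward), and bars narrower than 0.7 kb are drawn at 0.7 kb. Bars above 20-fold appear in ESCs at Dnmt3a, Dnmt3b, Dnmt3l and Tet3, and downward bars of both XEN antibodies coincide at Tet2.

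Dnmt3l carried the highest ESC Zfp281 peak of the 6 windows. This 3966-bp peak, on chromosome 10 from 77510124 to 77514089, was enriched 35.4-fold, with 141 tags over an expected level of 3.01. It ranked 610 of 52296 by -log10 q-value, or in the highest 1.17%, and in the widest 0.229%. The next peaks of this window, from 77481386 to 77482171 and from 77499135 to 77501021, reached 14.0-fold and 13.5-fold. The other 6 ranged down to 4.61-fold. No XEN Zfp281 peak lay in the window, and the nearest on either side were 50.4 kb and 1019 kb beyond its edges. No Suz12 peak of either cell type lay in it, and the nearest ESC Suz12 peaks were 46.6 kb and 158 kb outside. Dnmt3l itself is 21.3 kb long in GRCm38.p6, where Pfkl lies 32.5 kb and Icosl 5.75 kb from it. Most of this window is therefore flank, and peaks in it may belong to these or other genes. By the same gene lengths the other windows held 47.1 to 55.2 kb of flank, so their peaks too may belong to other genes. In that build Ccar1 lies 12.2 kb from Tet1 and Bola3 2.24 kb from Tet3.

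Dnmt3b had 1 ESC Zfp281 peak that stood far above the other 4. This 3170-bp peak, on chromosome 2 from 153475013 to 153478182, was enriched 28.4-fold, with 124 tags over a level of 3.40, in the highest 2.00% of the list. The second, from 153464629 to 153465580, had 10.2-fold, and the remaining 3 had 4.49-fold to 5.23-fold. The XEN list had no Zfp281 peak in this window and none closer than 273 kb to it. Dnmt3b and Dnmt3l were thus the windows with Zfp281 peaks in ESCs and none in the XEN list. Absence from that list means only that the list names no peak there, and the XEN list was shorter throughout. This limit is stronger for XEN Suz12, whose whole list had 4 peaks, so its absence from a window says little about that gene.

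Dnmt3a had most of its Zfp281 peaks in 2 groups, each led by a high peak. Of its 17 ESC peaks, 5 fell within 6.24 kb on chromosome 12, from 3806378 to 3812619, and 7 within 14.5 kb, from 3883305 to 3897756, where gaps of at most 5 kb joined peaks into a group. A further group of 2, from 3789655 to 3792469, had 5.62-fold and 8.22-fold. In the group of 5 the highest peak ran from 3806378 to 3808646, with 27.4-fold enrichment from 109 tags over a level of 3.01 and in the highest 2.70% of the list. In the group of 7 it ran from 3890926 to 3894319, at 22.5-fold from 123 tags over a level of 4.51, in the highest 2.64% of the list and among the widest 0.459%. Whether these 2 peaks lie at the promoters of the long and short isoforms was not analysed here, because no annotation of mm9 was used. In XENs the window held 1 Zfp281 peak, from 3891688 to 3891994, inside the highest peak of the group of 7. It was 307 bp wide, had 5.76-fold enrichment from 24 tags and stood in the lower part of its list, at rank 2430 of 3449. It covered 9.05% of the ESC peak, and the summits were 129 bp apart. The group of 5 had no XEN peak, and no Suz12 peak of either cell type lay in the Dnmt3a window.

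Tet1 was the member at which the XEN Zfp281 list was strongest. Its 9 ESC Zfp281 peaks were of middle height, from 3.61-fold to 12.3-fold, and the highest of them by -log10 q-value stood in the highest 11.4% of the list. The window held 3 XEN Zfp281 peaks, and each lay wholly within an ESC peak. The XEN peak on chromosome 10 from 62346863 to 62347723 had 14.5-fold enrichment from 76 tags (61.9 after scaling) over a level of 3.34. It ranked 151 of 3449, in the highest 4.38% of the XEN list. The ESC peak at the same place, from 62346820 to 62347797, had 11.5-fold enrichment from 68 tags (68.0 after scaling) over a level of 4.98. That ESC peak stood in the highest 11.7% of the ESC list. The XEN peak took up 88.0% of the ESC peak and the summits were 72 bp apart. These percentages rank each peak in its own list. The lists differ in length, so they do not measure a change in binding. The other 2 XEN peaks, from 62255644 to 62255970 and from 62365408 to 62365733, had 6.52-fold and 5.95-fold enrichment and covered 14.3% and 40.2% of their ESC peaks. Their summits were 1040 bp and 22 bp from the ESC summits. No Suz12 peak lay in the Tet1 window in either cell type.

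Tet3 combined 3 Zfp281 peaks, 2 of them above the list's median fold, with most of the Suz12 peaks found around these genes. Its 3 ESC Zfp281 peaks lay on chromosome 6. That from 83405539 to 83407165 had 29.9-fold enrichment from 119 tags over a level of 3.01, in the highest 2.06% of the list. That from 83390697 to 83391942 had 12.5-fold, and that from 83371664 to 83372506 had 5.23-fold. The single XEN Zfp281 peak, from 83390686 to 83391378, matched the second of these with a summit 17 bp away. It had 7.15-fold enrichment from 69 tags (56.2 after scaling). Its control level was 7.00, or 2.97 times the background of the XEN Zfp281 list, the highest such ratio among the member peaks, whereas the ESC peak there stood at the background of its own list. Whether the raised control level plays a part in the lower fold in XENs was not tested. The highest of the 3 ESC peaks had no XEN counterpart.

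Over the 6 windows, an XEN Zfp281 peak was met by 5 of the 52 from ESCs, or 9.62% (95% Wilson interval 4.18 to 20.6%, counting error only), against 5.10% of the whole ESC list. In the other direction 5 of 9 XEN peaks overlapped an ESC peak, or 55.6% (26.7 to 81.1%), against 80.8% of the XEN list. The 4 XEN peaks without an ESC partner were all those of Tet2. Without the Tet2 window all 5 XEN peaks had one.

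**Figure D2:**
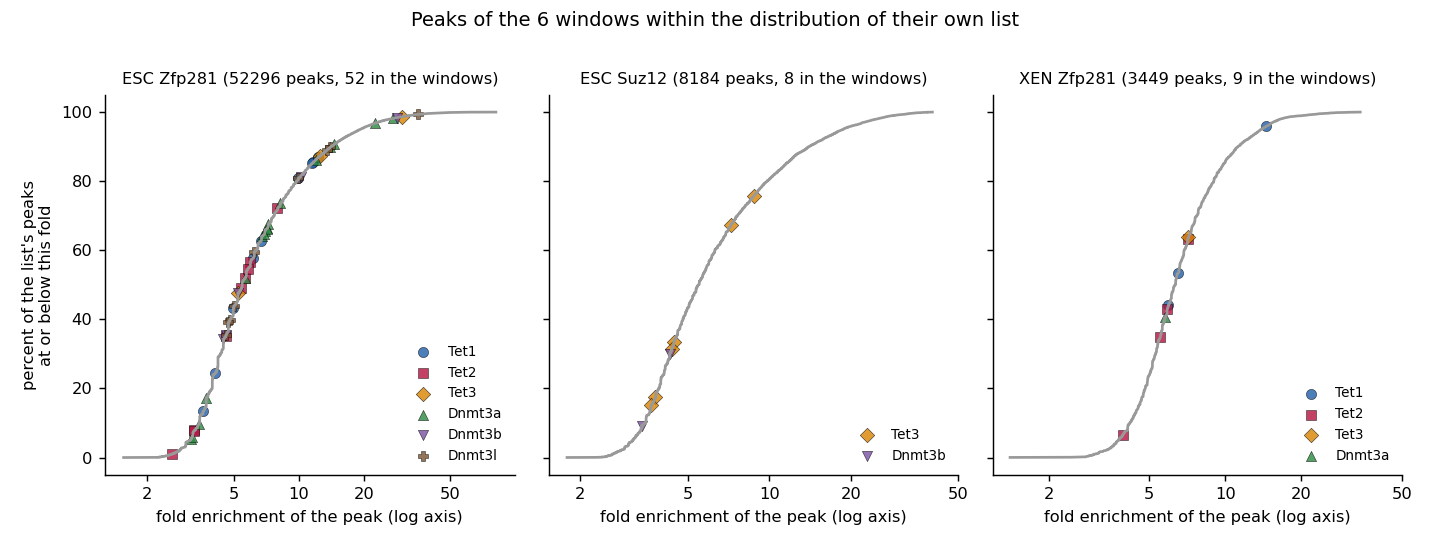
Peaks of the windows within their own list. Grey curves give the percent of a list's peaks (vertical axis) at or below each fold enrichment (horizontal log axis), and symbols mark the peaks of the windows by gene. ESC Zfp281 peaks of the windows spread over the whole curve, the ESC Suz12 peaks reach no higher than 8.77-fold, and the 14.5-fold Tet1 peak is the highest of the 9 in XENs.

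Suz12, whose complex trimethylates histone H3 at lysine 27, had peaks around 2 of these genes in ESCs. Of its 8 peaks 6 fell in the Tet3 window and 2 in that of Dnmt3b. Over the 6 windows this came to 1.09 peaks per 100 kb, against 0.318 over the genome, while 19.3% of the 120-kb tiles of the genome held at least 1 ESC Suz12 peak and 1.21% at least 5. All 8 were modest, with a median of 4.32-fold against 5.48-fold over the list and none in the highest 10% by -log10 q-value. Only 2 exceeded the list's median fold, and both flanked the 29.9-fold Zfp281 peak of Tet3.

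At that place the 2 factors lay side by side. One Suz12 peak ran from 83403956 to 83405853 with 7.21-fold enrichment from 45 tags, the other from 83407150 to 83408373 with 8.77-fold from 60 tags, and a gap of 1296 bp separated them. The Zfp281 summit fell in this gap, 585 bp and 1324 bp from the Suz12 summits. The Zfp281 peak reached into the first Suz12 peak by 315 bp and into the second by 16 bp. The remaining 4 Suz12 peaks of Tet3 lay between 83368259 and 83373957 with 3.66-fold to 4.43-fold enrichment, and 1 of them overlapped the 5.23-fold Zfp281 peak by 147 bp.

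At Dnmt3b both Suz12 peaks overlapped Zfp281 peaks but were weak. The first, from 153465224 to 153465750 (4.28-fold from 26 tags), shared 357 bp with the 10.2-fold Zfp281 peak. The second, from 153476269 to 153476755 (3.37-fold from 22 tags), lay wholly inside the 28.4-fold Zfp281 peak, 1180 bp from its summit. It stood in the lowest part of its list, at rank 7922 of 8184. In total 5 of the 8 Suz12 peaks overlapped a Zfp281 peak, or 62.5% (30.6 to 86.3%), against 45.8% of the Suz12 list. The converse was 4 of 52 Zfp281 peaks, or 7.69% (3.03 to 18.2%), against 7.77% of the Zfp281 list. No ESC Suz12 peak of the windows met an XEN Zfp281 peak (0 of 8, against 1.99% of the list), and no XEN Zfp281 peak met an ESC Suz12 peak (0 of 9, against 5.13%). In none of the 5 overlapping pairs did the Zfp281 summit fall inside the Suz12 peak. When an overlap had to cover at least 50% of the shorter peak, 2 of the 8 Suz12 peaks remained, both at Dnmt3b. For the summits and for this stricter overlap, the shares over the whole lists were not analysed here. How usual such positions are is therefore not known.

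**Figure D3:**
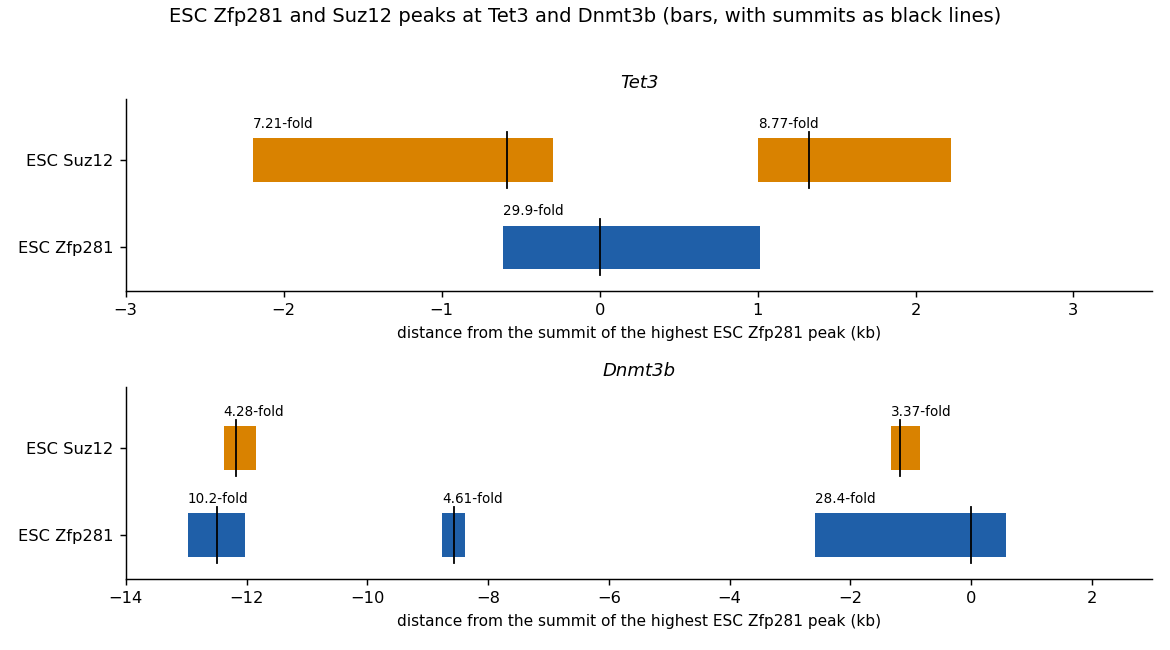
ESC Zfp281 and ESC Suz12 peaks near the highest Zfp281 peak of Tet3 (top) and Dnmt3b (bottom). Bars span each peak, black lines mark summits, labels give the authors' fold enrichment, and the horizontal axis is the distance in kb from the summit of that Zfp281 peak. At Tet3 the Zfp281 summit lies in the 1296-bp gap between 2 Suz12 peaks, and at Dnmt3b a 3.37-fold Suz12 peak lies inside the 28.4-fold Zfp281 peak.

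Tet2 was the window that held XEN Suz12 peaks, and its XEN Zfp281 peaks lay apart from its ESC Zfp281 peaks. In ESCs its 9 Zfp281 peaks ran from 2.60-fold to 7.97-fold. Their median of 5.42-fold was close to the 5.48-fold of the list, but none was high. The highest, on chromosome 3 from 133173252 to 133173805, stood only in the highest 31.5% of the list. ESC Suz12 had no peak within 485 kb of the window. In XENs the window held 4 Zfp281 peaks and 3 of the 4 Suz12 peaks of the whole list. No ESC peak of Zfp281 or Suz12 touched any of these 7. Over the lists, 80.8% of XEN Zfp281 peaks met an ESC Zfp281 peak and 5.13% an ESC Suz12 peak, and of the 4 XEN Suz12 peaks 1 met an ESC Zfp281 peak and 0 an ESC Suz12 peak. All 3 Suz12 peaks overlapped an XEN Zfp281 peak. The list share of 75.0% of 4 peaks consists of these same 3, so it is no separate reference.

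The XEN peaks of Tet2 formed 2 blocks separated by 17527 bp. The left block had 1 peak of each antibody. Suz12 ran from 133129777 to 133130931 with 9.65-fold enrichment from 47 tags, and Zfp281 ran from 133129795 to 133131070 with 7.09-fold from 28 tags. The left edges of the 2 peaks were 18 bp apart and the right edges 139 bp. In the right block Suz12 had a peak from 133148598 to 133149356 (10.8-fold, 53 tags) and one from 133149556 to 133151496 (7.81-fold, 49 tags). Zfp281 had 3 peaks there, from 133148666 to 133149237 (3.92-fold, 18 tags), from 133149547 to 133150658 (5.53-fold, 30 tags) and from 133150940 to 133151489 (5.88-fold, 23 tags). The outer edges of this block, over 2899 bp in all, were 68 bp apart on the left and 7 bp on the right.

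Peaks of both antibodies shared most of their bases at Tet2. Of the bases under Zfp281 peaks, 89.1% of the left block and 99.6% of the right were also under a Suz12 peak, and the reverse shares were 98.4% and 82.4%. Over the whole XEN Zfp281 list 0.116% of peaks overlapped a Suz12 peak, and all 4 that did were these. For comparison, among the 2778 XEN Zfp281 peaks that overlapped a single ESC Zfp281 peak, the median distance of left edges was 296 bp and that of right edges 302 bp, and both edges lay within 150 bp in 11.3%. Those pairs join the cell types with 1 antibody, whereas the Tet2 pairs join 2 antibodies within XENs, so the values stand side by side only as a scale. The nearest ESC Zfp281 peak, from 133147498 to 133148032 (4.60-fold), ended 565 bp before the right block.

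**Figure D4:**
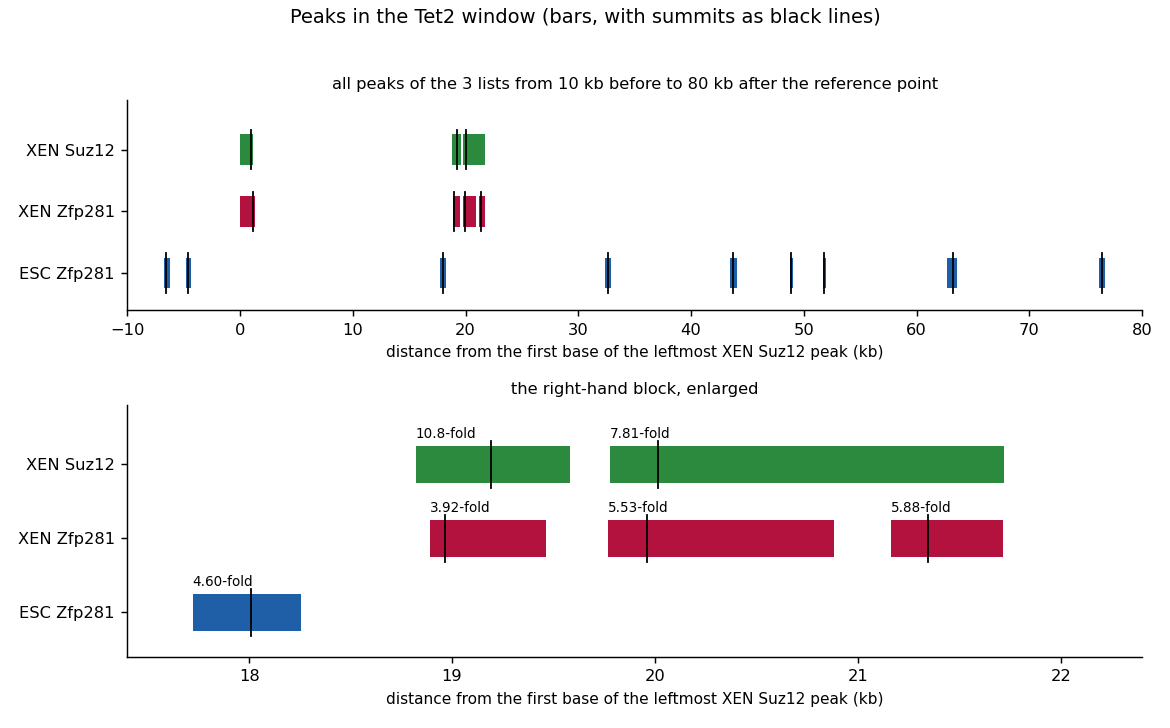
Peaks in the Tet2 window. Bars span each peak of the ESC Zfp281, XEN Zfp281 and XEN Suz12 lists, black lines mark summits, and the horizontal axis is the distance in kb from the first base of the leftmost XEN Suz12 peak; the lower panel enlarges the right-hand block and labels each peak with the authors' fold enrichment. The outer edges of each XEN block are within 139 bp of each other between the antibodies, 1 Suz12 bar spans 2 Zfp281 bars, and no ESC Zfp281 bar overlaps them.

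The Tet2 peaks of XENs were wide for their height. The Zfp281 peaks of 1276 and 1112 bp were in the widest 0.667% and 1.42% of the XEN list, in which the median width was 390 bp. By -log10 q-value they stood only in the highest 49.8% and 61.7%. XEN Zfp281 peaks of at least 1 kb numbered 71 (2.06%), with a median of 11-fold, and only 5 of them had no ESC Zfp281 partner, 2 of which were these. Between the 4 overlapping pairs of a Zfp281 and a Suz12 peak, the starts lay 9 to 1384 bp apart, the ends 7 to 838 bp and the summits 54 to 1329 bp. In the right block the wider Suz12 peak spanned 2 of the Zfp281 peaks, and the largest of these distances belong to those pairs.

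The control level was at the lowest of its list at 4 of these 7 peaks. It equalled the lowest level of its list, taken as the background, at 2 of the 3 Suz12 and 2 of the 4 Zfp281 peaks. This was 2.20 for Suz12 and 2.36 for Zfp281, in units of scaled pileup. Elsewhere in the blocks the control level reached at most 1.53 times the background. The highest levels, 3.60 at a Zfp281 peak and 3.12 at a Suz12 peak, were above the list medians of 3.08 and 2.66. Over the XEN Zfp281 list 81.5% of peaks had a level above the background. The Suz12 values rest on a scale, a background and a median read from only 4 peaks. Of these 4 peaks 3 are those of Tet2, so that background and median are no outside reference.

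Among XEN Zfp281 peaks without an ESC partner, those of Tet2 formed the group with most peaks at a gap limit of 25 kb. When the 662 such peaks were joined across gaps of at most 25 kb, they formed 622 groups, of which 3 had at least 3 peaks. The Tet2 group, with 4 peaks over 3510 bp, ranked 1 by number and by covered length. The next, on chromosome 16 from 10344871 to 10351827, had 3 peaks over 1414 bp, and the other group of 3, on chromosome 8 from 35816100 to 35844041, covered 1075 bp, both without a Suz12 peak. The gap limit was chosen after the values were seen. A limit below the 17527 bp between the 2 Tet2 blocks would part them, with 1 and 3 Zfp281 peaks over 1276 and 2234 bp. Outside Tet2 the nearest XEN Zfp281 peaks on the chromosome were 2111 kb and 1866 kb beyond the window. Which exons, introns or untranslated parts of Tet2 these blocks cover, and whether they follow coding exons, was not analysed here, because that needs an annotation of mm9. Reads of a cDNA would stack on exons without binding of either factor there, so these peaks are given as enrichment and not as binding. Whether a cDNA gave them was not tested.

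**Figure D5:**
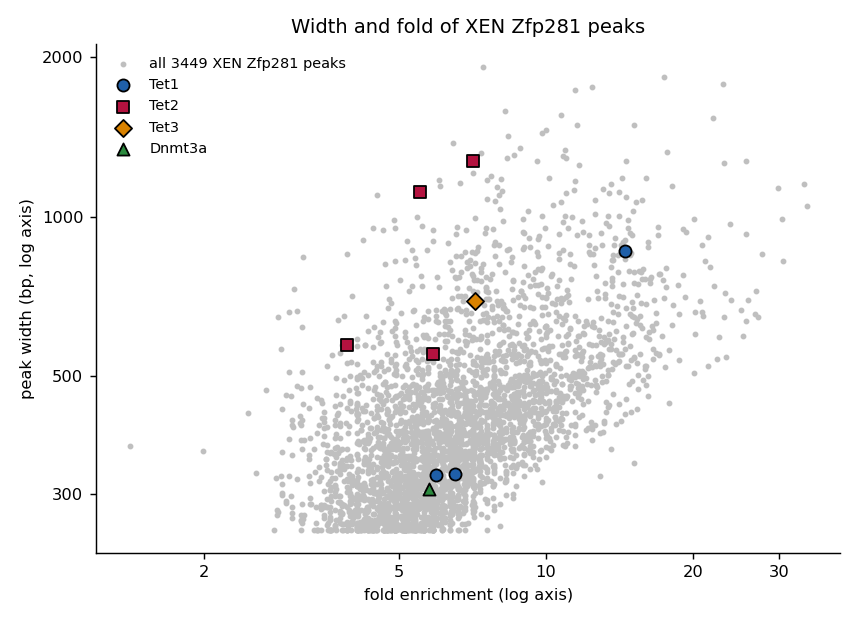
Width in bp against fold enrichment of the XEN Zfp281 peaks, both on log axes, with all 3449 peaks in grey and those of the windows coloured by gene. The Tet2 peaks of 1276 and 1112 bp lie at the upper edge for their fold, and the 14.5-fold Tet1 peak lies far to the right of the other 8.

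At the edges of the windows the choice of members was clear for XENs and less so for ESCs. The closest XEN Zfp281 peak left out was 11 kb beyond the Tet3 window (4.92-fold), and the closest inside an edge was 4.27 kb from the end of the Tet1 window (5.95-fold). ESC Zfp281 peaks lay 2.98 kb outside the Dnmt3l window (4.68-fold), 3.04 kb and 3.76 kb outside the Tet1 window (4.41-fold and 7.97-fold), and 1.39 kb inside the Dnmt3l window (14.0-fold). All ESC Suz12 peaks left out were at least 37.8 kb away. Control levels at the 52 ESC Zfp281 peaks were at the list's background in 21 and at most 1.98 times it in the others. The 31 above background stand beside 54.7% of 1999 matched peaks sampled from the whole list.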

How the data were processed

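Peak lists of 5 ChIP libraries, sequenced as paired reads of 150 bp, were analysed. Per the submitters' processing notes, Bowtie2 2.3.4, SAMtools 0.1.19, FastQC 0.10.1 and build mm9 were used. The peak caller, control, duplicate handling and cut-off are not given in the sources used here. Each deposited peak, called on 1 library, carries the authors' fold enrichment (a ratio), -log10 p-value, -log10 q-value, summit and score. In every peak the score held 10 times that -log10 q-value, cut to a whole number, as deposited.

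Peaks were assigned to windows and compared by overlap of at least 1 bp with Python 3.11.15 and pandas 2.3.3. Shares have 95% Wilson intervals. No test was possible with 1 library per group. Tags and control level were solved from the deposited fold, taken as pileup plus 1 over level plus 1, and p-value, taken as a Poisson tail. The pileup was the number of tags times the scale factor of the list, and levels are in units of this scaled pileup. With 1 scale factor per list (1.00, 0.590, 0.815 and 0.636 for ESC Zfp281, ESC Suz12, XEN Zfp281 and XEN Suz12) a whole number of tags matched within 0.002 for 1999 of 2000 sampled ESC Zfp281 peaks and for every peak checked in the other lists. A level was called above background from 1.02 times the lowest of the list. The step was tested on simulated data, but only on lists far longer than that of XEN Suz12. The scale of each list was chosen to match its own peaks. For the 4 XEN Suz12 peaks the match is therefore no separate check.

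Named peaks were the highest of each list in each window, every XEN and ESC Suz12 peak, and the nearest outside. Other peaks given by position were chosen after their values were seen. Members, lists and comparisons were chosen with earlier results of these data known. Groups of neighbouring peaks, width limits and edge distances were chosen after the values were seen. Other genes of the pathway were not analysed here, because the tables used are of GRCm38.p6.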

Additional observations from a re-analysis of the deposited data

How the results depend on the processing

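No paired analysis was possible because 1 library stood for each condition, and for the same reason no library could be left out. Of 53 alternative values, 35 stayed close, meaning within 1.5 times the main value for a count and within the 95% interval of the main value for a share or percentile. That interval is very narrow for a percentile in a long list and wide for a share of few peaks. Thus a percentile going from 97.6 to 98.3 counted as moved, and a share going from 55.6% to 75.0% as close. The tally therefore does not measure how stable the results are. With the higher-scoring 50% of each list, which by construction removes weak peaks, the windows held 33 ESC Zfp281, 2 ESC Suz12, 4 XEN Zfp281 and 1 XEN Suz12 peaks. The share of Zfp281 peaks at a Suz12 peak in ESCs was then 3.03%, that of Suz12 peaks at a Zfp281 peak 100% (2 of 2), and that of Tet2 XEN Zfp281 peaks at a Suz12 peak 0% (0 of 1). With a minimum -log10 q-value of 5 the windows held 3 ESC Suz12 peaks, and 2.27% of ESC Zfp281 peaks met one. When overlap had to reach 50% of the shorter peak, 25% of ESC Suz12 peaks met a Zfp281 peak. Leaving out Tet2, an alternative chosen after seeing the data, gave 100% of XEN Zfp281 peaks at an ESC peak and 0% at an XEN Suz12 peak. The median percentile of each window's highest peak was 97.6 for ESC Zfp281, 48.8 for ESC Suz12 and 67.4 for XEN Zfp281. Ranked by fold it was 98.3, 52.9 and 63.4, and by width 98.6, 50.2 and 93.3. The ESC Suz12 median rests on only 2 windows, which by -log10 q-value stood far apart, at 73.8 (Tet3) and 23.8 (Dnmt3b). The XEN Zfp281 median rests on 4 windows, from 29.5 (Dnmt3a) to 95.6 (Tet1). The match of Tet2 peaks to coding exons and its alternatives were not run, because no annotation of mm9 was used. Shares over 8 or 9 peaks, and anything read from 4 XEN Suz12 peaks, have no more precision than those counts allow.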
